A study of Homo sapiens with 12 samples.

Results

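The APOBEC3 cytidine deaminases are the 7 human genes APOBEC3A, APOBEC3B, APOBEC3C, APOBEC3D, APOBEC3F, APOBEC3G and APOBEC3H, and they were taken here by symbol from the 26210 gene rows of an RNA-Seq table. All 7 had a row. Of these, 6 passed the filter on low values (at least 1 FPKM in at least 2 of the 12 libraries), which 14679 rows passed in all, and APOBEC3A did not. The value is FPKM, fragments per kilobase of transcript scaled to library size, so levels can be set side by side between genes as well as between libraries. The 12 libraries were total RNA, depleted of ribosomal RNA, from 6 conditions of 2 libraries each. KM-H2, L1236 and L428 are untreated cell lines of classical Hodgkin lymphoma. Namalwa, an untreated Burkitt lymphoma line, and Reh, an untreated line of lymphoblastic leukaemia at the pro-B stage, were the non-Hodgkin B-cell controls. In the sixth condition Reh was treated with 2 ng/ml of the phorbol ester PMA, an activator of protein kinase C that the study used as an inflammatory stimulus; how long these cells were treated is not given in the sources used here. Each condition is a single established line. The labels give duplicate libraries and do not say whether they came from separate cultures, so the p-values below measure the spread between libraries, which may be technical. The Hodgkin lines were grown in IMDM and the controls in RPMI, and medium and lymphoma type cannot be told apart.

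APOBEC3 enzymes turn cytosine into uracil in single-stranded DNA. They are known as restriction factors that mutate or block retroviruses and mobile elements, and APOBEC3A and APOBEC3B are also known for the C-to-T and C-to-G mutations they leave in tumour genomes. APOBEC3B is mainly nuclear. APOBEC3D, APOBEC3F, APOBEC3G and APOBEC3H act against viruses without Vif from the cytoplasm, and APOBEC3C is abundant in many lymphoid cells and has weaker antiviral activity. Phorbol esters and NF-κB signalling are known inducers of APOBEC3B in other cells.

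The genes lie in a row on the plus strand of chromosome 22. On GRCh37 (hg19) they run from position 39348746, the start of APOBEC3A, to position 39500072, the end of APOBEC3H, a span of 151.3 kb. APOBEC3B occupies positions 39378352 to 39388809. The gap between neighbours ranged from 760 bases, between APOBEC3C and APOBEC3D, to 21452 bases, between APOBEC3B and APOBEC3C. A long non-coding gene, APOBEC3B-AS1, lies on the minus strand at 39387564 to 39394214 and overlaps the last 1246 bases of APOBEC3B.

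The catalytic sites show how alike the members are, and this bears on how reads were shared out among them. In the GENCODE transcripts, the longest open reading frame held 1 zinc-binding deaminase motif in APOBEC3A, APOBEC3C and APOBEC3H and 2 in APOBEC3B, APOBEC3D, APOBEC3F and APOBEC3G. The 30 coding bases that start at the histidine of the last motif are given here, 5′ to 3′, with the codons of His-x-Glu, the zinc ligand and the catalytic glutamate, in capitals.
APOBEC3A: CATGCGGAGctgcgcttcttggacctggtt
APOBEC3B: CATGCGGAGctgcgcttcttggacctggtt
APOBEC3C: CATGCAGAAaggtgcttcctctcttggttc
APOBEC3D: CATGCAGAAaggtgcttcctctcttggttc
APOBEC3F: CATGCAGAAaggtgcttcctctcttggttc
APOBEC3G: CATGCAGAGctgtgcttcctggacgtgatt
APOBEC3H: CATGCAGAAatttgctttattaacgagatc

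The stretch was identical in APOBEC3A and APOBEC3B, and again in APOBEC3C, APOBEC3D and APOBEC3F. APOBEC3G had the same base as APOBEC3B at 25 of 30 positions and APOBEC3H at 17 of 30. Over whole transcripts, 27.5% of the 50-base words of APOBEC3B occurred in another member, 13.3% in APOBEC3A alone. For APOBEC3A the share was 22.1%, for APOBEC3D, APOBEC3G and APOBEC3F at most 15.3%, whereas APOBEC3C had 1.23% and APOBEC3H none. APOBEC3D also shared 89.0% of its words with some other annotated gene. How the authors divided fragments among such copies is not given in the sources used here, so the levels of all members but APOBEC3C and APOBEC3H carry that uncertainty. A separate row for the APOBEC3A_B fusion gene was listed at 0 in 11 libraries and at 0.0753 FPKM in the remaining library, from PMA-treated Reh.

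Read totals were not used here. The smallest steps between low FPKM values put a fragment on 1 kb of transcript at 0.0477 to 0.291 FPKM, a 6.09-fold range of depth between libraries. Library pairs of 1 condition correlated with r of 0.906 to 0.985 across genes. The deposited columns end in 0 or 1, and the libraries are called library 0 and library 1 here. In each Hodgkin line library 0 was the shallower. Also, the gene-wise differences between library 0 and library 1 correlated with r of 0.30 to 0.68 between Hodgkin lines, against −0.04 to 0.19 in the other pairs of conditions except Namalwa with Reh (0.36). Hodgkin and B-lineage markers went with the labels: 4 or 5 of 5 Hodgkin markers stood at 1 FPKM or more in both libraries of each Hodgkin line, while 1 of 6 B-lineage markers did. Namalwa held 6 of 6 B-lineage markers and Reh 5 of 6. Of the precursor B markers each of these controls held 4 of 5, summed to 172 to 186 FPKM in Namalwa and 1077 to 1159 FPKM in Reh. VPREB1 stood at 7.89 to 11.4 FPKM in Namalwa and at 0 in Reh, and DNTT at 0 in Namalwa. KM-H2 also carried CD3D at 13.5 to 22.5 FPKM and CD14 at 4.56 to 5.79 FPKM, and Reh carried MPO at 24.8 to 32.0 FPKM. Each of these was the only 1 of 4 markers of its list, T and NK cells or myeloid, at 1 FPKM or more in both libraries of that line. PMA-treated Reh held 3 of 3 PMA response markers. The summed level of the B-lineage markers was 2.55 to 34.7 FPKM in the Hodgkin lines, with MS4A1 (CD20) at 0 in all 3, and 901 to 1377 FPKM in the untreated controls, and the part of this in the differences below was not tested.

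The plot of levels by library shows all 7 members.

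**Figure D1:**
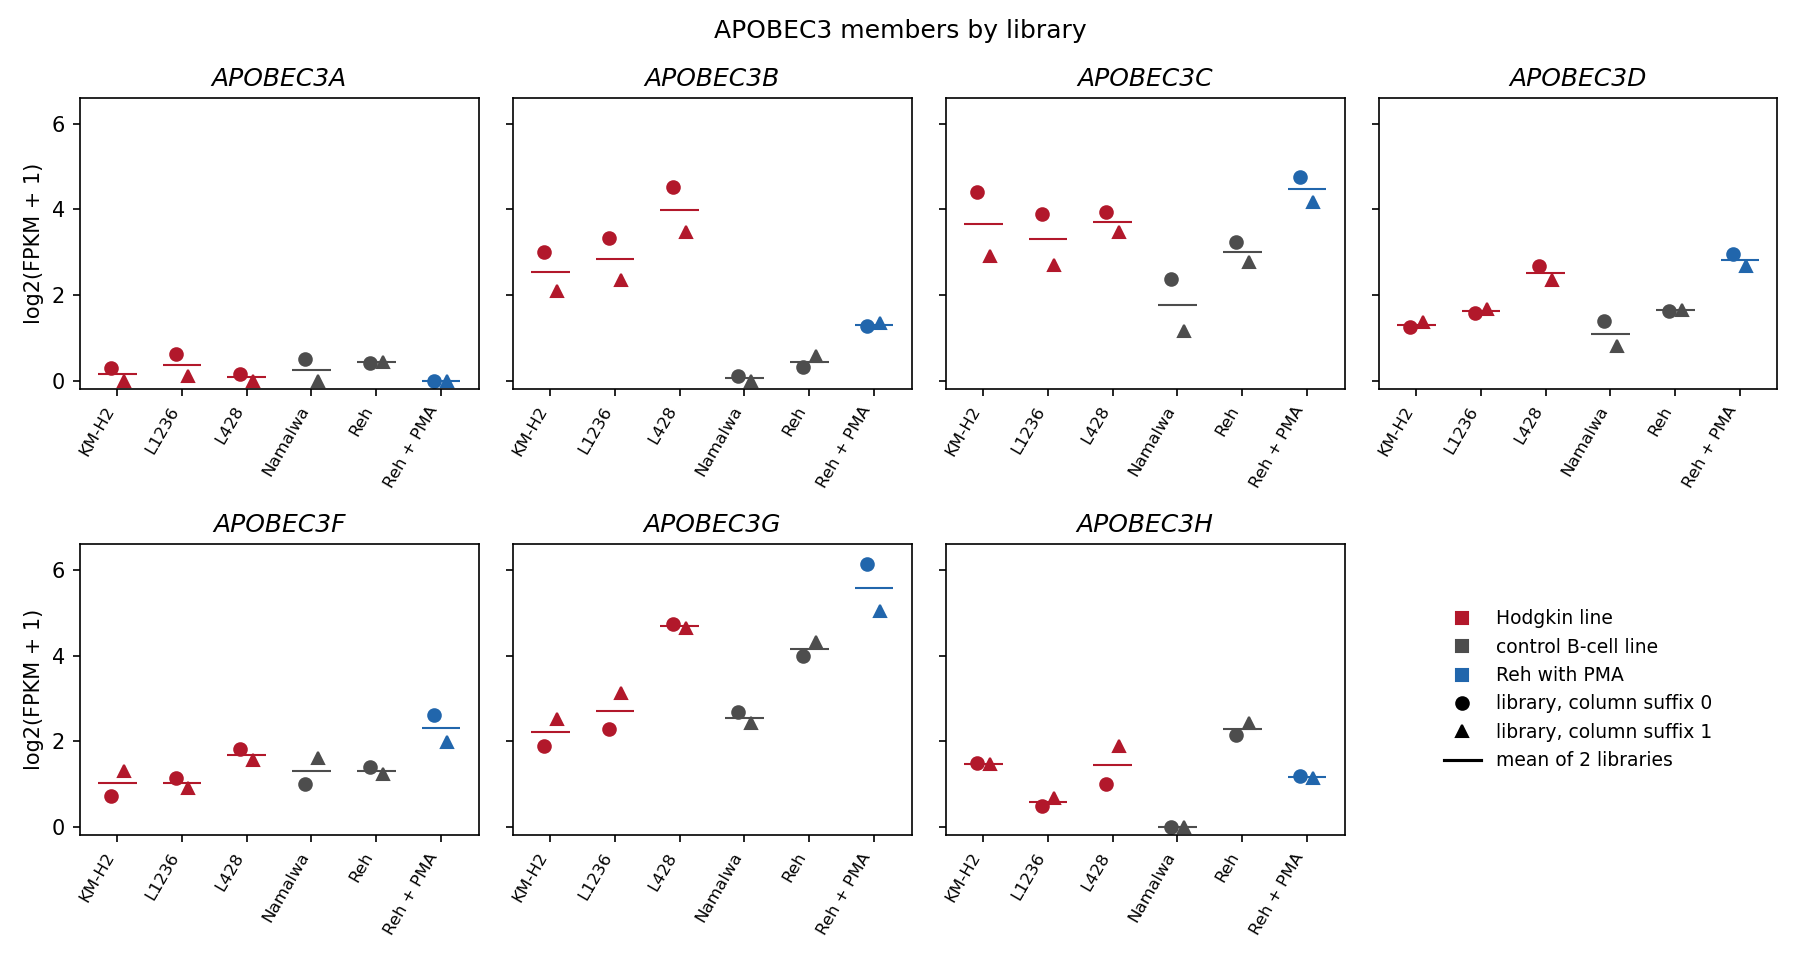
Level of each APOBEC3 gene, log2(FPKM + 1), in the 12 libraries; circles are library 0, triangles library 1 and lines the mean of the 2 libraries of a condition. APOBEC3B stands high in the 3 Hodgkin lines (red), between 3.27 and 21.9 FPKM, and lies at 0.486 FPKM or less in the untreated controls (grey), whereas APOBEC3G and APOBEC3H do not separate the 2 kinds of line.

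APOBEC3B, the nuclear deaminase, was highest in the Hodgkin lines. It measured 6.98 and 3.27 FPKM in KM-H2 (library 0, then library 1, here and below), 9.08 and 4.06 in L1236 and 21.9 and 10.0 in L428. In Namalwa it was 0.0790 and 0, in Reh 0.237 and 0.486, and in PMA-treated Reh 1.43 and 1.52. Every Hodgkin library lay above every other library. In fragments this was about 32 to 255 in the Hodgkin libraries, at most 1 in Namalwa, 4 to 8 in Reh and 38 to 43 after PMA, estimated from the steps above, so the low levels of the controls rest on very few fragments. The level in library 0 was 2.14 times that of library 1 in KM-H2, 2.24 times in L1236 and 2.18 times in L428, while in Reh it was 0.488 times. L428 was above KM-H2 by 1.45 (log2 scale, adjusted p = 0.0288, where 36.4% of all genes were called), while L1236 minus L428 was −1.15, which did not pass the threshold (adjusted p = 0.0774). The call between L428 and KM-H2 was lost with a pseudocount of 0.1 or no filter. It was also lost without library 1 of KM-H2 or library 0 of L428, where KM-H2 minus L428 was −0.99 and −0.92.

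APOBEC3C and APOBEC3D, neighbours in the cluster, were present in every library. APOBEC3C measured 20.3 and 6.52 FPKM in KM-H2, 13.8 and 5.54 in L1236, 14.3 and 10.1 in L428, 4.14 and 1.24 in Namalwa, 8.40 and 5.85 in Reh and 26.1 and 16.9 in PMA-treated Reh. Library 0 was the higher in all 6 conditions, by 1.41 to 3.33 times, and the libraries of KM-H2 and L1236, but not those of L428, overlapped those of Reh. APOBEC3D measured 1.36 and 1.56 FPKM in KM-H2, 1.99 and 2.18 in L1236, 5.38 and 4.12 in L428, 1.62 and 0.745 in Namalwa, 2.10 and 2.13 in Reh and 6.75 and 5.41 in PMA-treated Reh. Here L428 and PMA-treated Reh stood apart from the rest.

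APOBEC3F and APOBEC3G, the 2-motif members best known for blocking virus without Vif, were also highest in PMA-treated Reh. APOBEC3F was low throughout, at 0.643 and 1.48 FPKM in KM-H2, 1.22 and 0.886 in L1236, 2.50 and 1.93 in L428, 1.01 and 2.06 in Namalwa, 1.61 and 1.37 in Reh and 5.12 and 2.96 in PMA-treated Reh. APOBEC3G reached the highest level of any member, at 68.9 and 31.7 FPKM in PMA-treated Reh. It measured 25.9 and 24.1 FPKM in L428, 14.9 and 18.9 in Reh, 5.40 and 4.33 in Namalwa, 3.88 and 7.77 in L1236 and 2.71 and 4.77 in KM-H2. The Hodgkin lines therefore lay on both sides of Reh.

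The remaining members each have 1 zinc motif. APOBEC3H measured 3.39 and 4.34 FPKM in Reh, 1.82 and 1.74 in KM-H2, 0.998 and 2.71 in L428, 1.26 and 1.20 in PMA-treated Reh and 0.391 and 0.587 in L1236, and it was listed at 0 in both Namalwa libraries. Its values rest on at most about 40 fragments in a library. APOBEC3A, known mainly from myeloid cells, did not exceed 0.543 FPKM and was listed at 0 in 5 of 12 libraries, including both of PMA-treated Reh. Its values rest on at most about 6 fragments in any library, and as it did not pass the filter its differences were not tested with limma.

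The study mapped the activation of long terminal repeats in Hodgkin lines and its bearing on their gene expression, and used Reh and Namalwa as controls. For APOBEC3 genes the mean of the 3 Hodgkin lines was higher than the mean of Reh and Namalwa for APOBEC3B, APOBEC3C and APOBEC3D, and for the other 3 members tested no difference passed the threshold. APOBEC3B was higher by 2.88 ± 0.28 (SE) on the log2(FPKM + 1) scale, 7.34-fold in FPKM + 1, with an adjusted p of 2.81e-05 (limma, Benjamini-Hochberg over all 14679 genes; 2 libraries a condition). This scale understates the change of low genes. A lower level can mean fewer expressing cells or less RNA per cell, which cannot be told apart in bulk RNA. APOBEC3C was higher by 1.17 ± 0.38 (2.25-fold, adjusted p = 0.0268) and APOBEC3D by 0.44 ± 0.15 (1.36-fold, adjusted p = 0.0313). Thus 3 of 6 members were called higher and 0 lower, against 29.6% of all genes called higher and 25.8% called lower, and the count of lower calls was also 0 at an unadjusted p under 0.05.

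**Figure D2:**
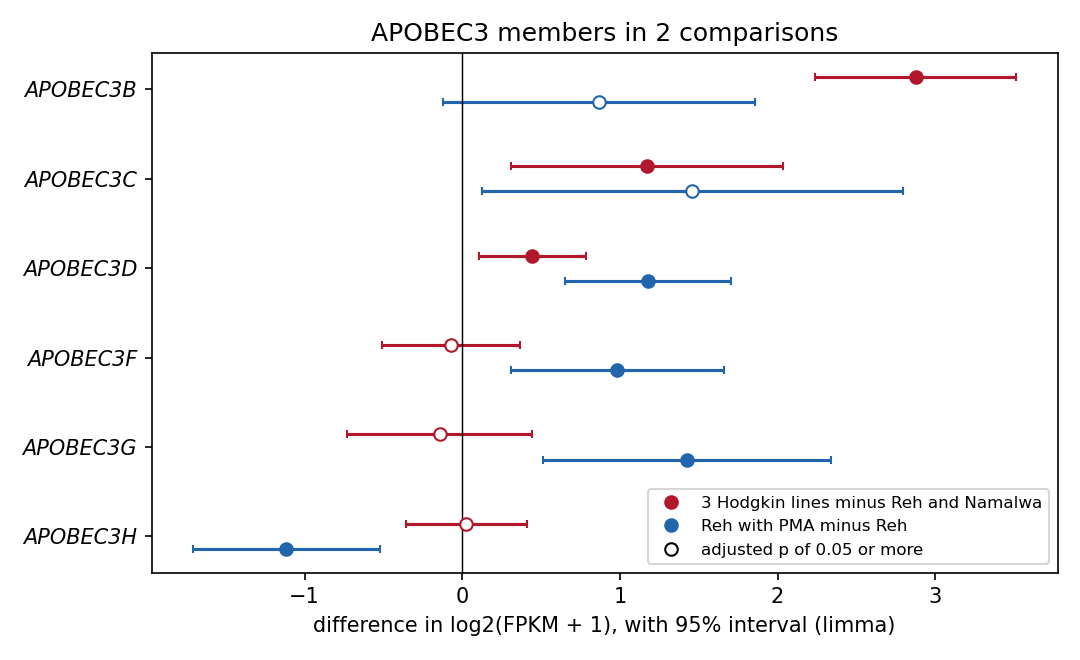
Difference in log2(FPKM + 1) for the 6 APOBEC3 genes tested, with 95% intervals from limma, for the Hodgkin lines minus the controls (red) and PMA-treated minus untreated Reh (blue); open circles have an adjusted p of 0.05 or more. APOBEC3B has the largest difference in red, 2.88, with an interval of 2.24 to 3.51, and in blue the called differences are those of APOBEC3D, APOBEC3F and APOBEC3G, above 0, and of APOBEC3H, below 0; the interval of APOBEC3C also lies above 0 but its adjusted p is 0.0906.

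For the members not called, the intervals of the Hodgkin minus control difference were −0.51 to 0.37 for APOBEC3F, −0.73 to 0.45 for APOBEC3G and −0.36 to 0.41 for APOBEC3H, as the plot of the 2 comparisons shows. With a pseudocount of 0.1 the APOBEC3H difference was 0.99 and was called (adjusted p = 0.0164), so its interval depends on the scale. The call for APOBEC3B was made under all 21 alternatives tried, with differences of 2.38 to 4.97. That for APOBEC3C was lost when any of 6 of the 12 libraries was left out (library 0 of KM-H2, L1236 or L428, library 1 of Namalwa, or either Reh library), with adjusted p of 0.0503 to 0.117. The call for APOBEC3D was lost without library 1 of KM-H2, L1236 or Namalwa, library 0 of L428, or either Reh library, with adjusted p of 0.0554 to 0.130. With library 1 alone of each Hodgkin line, the differences were 2.38 for APOBEC3B (adjusted p = 8.55e-05), 0.65 for APOBEC3C (adjusted p = 0.215) and 0.43 for APOBEC3D (adjusted p = 0.111). With library 0 alone they were 3.37 (adjusted p = 3.32e-05), 1.69 (adjusted p = 0.0245) and 0.46 (adjusted p = 0.0992).

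Taking the line as the unit, the means of the 3 Hodgkin lines did not overlap with those of the 2 controls for APOBEC3B and APOBEC3C, both higher, where 17.9% of all genes were higher without overlap. For each of these genes the exact two-sided permutation test gave p = 0.2, the smallest that 3 lines against 2 can give. The line means of APOBEC3A, APOBEC3D, APOBEC3F, APOBEC3G and APOBEC3H overlapped, with exact permutation p of 0.4 to 1. Without library 0 of KM-H2 or of L1236, the count without overlap fell to 1.

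Set against each control in turn, the Hodgkin lines gave 13 member calls higher and 5 lower over 6 comparisons, where 21.7% of all tests were called higher and 19.5% lower. APOBEC3B was higher in 6 of 6, by 2.11 (KM-H2 against Reh) to 3.93 (L428 against Namalwa) on the log2 scale. APOBEC3C was higher in 2 of 6, KM-H2 and L428 against Namalwa, by 1.90 and 1.94. APOBEC3D was higher in L428 than in either control, by 1.42 over Namalwa and 0.87 over Reh. APOBEC3G was 2.15 higher in L428 than in Namalwa, and 1.94 and 1.44 lower in KM-H2 and L1236 than in Reh. APOBEC3H was lower in all 3 Hodgkin lines than in Reh, by 0.80 in KM-H2, 1.70 in L1236 and 0.83 in L428, and KM-H2 and L428 were called higher than Namalwa, where it was listed at 0. APOBEC3F gave no call in these comparisons. Without library 0 or library 1 of Reh the lower calls fell from 5 to 2. The 2 calls of APOBEC3C were lost without library 0 of KM-H2, either library of L428 or library 1 of Namalwa (adjusted p of 0.0638 to 0.203), each for the comparison that library enters, and without library 0 of KM-H2 the difference of KM-H2 was 1.15. The call of APOBEC3D over Reh was lost without library 0 of L428 or either Reh library (adjusted p of 0.0683 to 0.0747). Of the lower calls, that of APOBEC3G in L1236 was lost without library 0 of L1236 or either Reh library (0.0531 to 0.132), that of APOBEC3H in L428 without library 0 of L428 or either Reh library (0.0600 to 0.164; −0.38 without library 0 and −1.28 without library 1 of L428), and that of APOBEC3H in KM-H2 without any 1 of 8 libraries (0.0516 to 0.171). Over all genes and both directions, 40.6% were called in KM-H2 against Namalwa and 43.3% against Reh, 39.7% and 40.7% in L1236, and 41.9% and 40.8% in L428.

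The controls themselves differed. Namalwa gave 0 members called higher than Reh and 2 lower, APOBEC3G and APOBEC3H, against 10.3% of all genes called higher and 14.7% lower. At an unadjusted p under 0.05 the counts were 0 and 3. APOBEC3G was lower in Namalwa by 1.61 ± 0.40 (adjusted p = 0.0172), a call lost when any of the 4 libraries of these lines was left out (adjusted p of 0.0562 to 0.110). APOBEC3H, listed at 0 in Namalwa and at 3.39 and 4.34 FPKM in Reh, had an adjusted p of 0.000181 and was called in all 20 alternatives. The Hodgkin minus control difference of these genes is thus the mean of unlike differences, as the comparisons with each control show.

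PMA was given to Reh in the study to see what an inflammatory stimulus does to long terminal repeats. In these libraries APOBEC3D, APOBEC3F and APOBEC3G rose and APOBEC3H fell. APOBEC3G went from 14.9 and 18.9 to 68.9 and 31.7 FPKM, a rise of 1.43 ± 0.40 (2.69-fold in FPKM + 1, adjusted p = 0.0257). APOBEC3D rose by 1.18 ± 0.23 (2.26-fold, adjusted p = 0.00546) and APOBEC3F by 0.98 ± 0.30 (1.98-fold, adjusted p = 0.0344). APOBEC3H fell by 1.12 ± 0.26 (2.17-fold lower, adjusted p = 0.0118). The treated and untreated libraries did not overlap for any of the 4. These were picked by their calls, and the share of all genes without such overlap was not computed, so this adds no support. In all, 3 of 6 members were called higher and 1 lower, where 14.7% of all genes were higher and 17.2% lower.

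APOBEC3B and APOBEC3C did not pass the threshold after PMA, although both treated libraries exceeded both untreated ones. APOBEC3B differed by 0.87, with an interval of −0.12 to 1.85 (adjusted p = 0.165). It passed with a pseudocount of 0.1 (1.82, adjusted p = 0.0450), in a fit of the 4 Reh libraries alone (adjusted p = 0.0238), and with only library 0 or only library 1 of the Hodgkin lines in the fit (adjusted p = 0.0118 and 0.0102). APOBEC3C differed by 1.46, with an interval of 0.12 to 2.80 (adjusted p = 0.0906). With the column suffix as a replicate block it passed (adjusted p = 0.00701).

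The call for APOBEC3D after PMA was made in all 21 alternatives. APOBEC3F and APOBEC3G were not called without either Reh library or without library 0 of PMA-treated Reh, with adjusted p of 0.108 to 0.218 and 0.0741 to 0.190. Without library 0 of PMA-treated Reh the APOBEC3G difference was 0.88 instead of 1.43. They were also not called in a fit of the 4 Reh libraries alone (adjusted p = 0.0803 and 0.104), or with only library 0 (0.0753 and 0.0623) or only library 1 (0.0761 and 0.0629) of the Hodgkin lines in the fit. APOBEC3H was not called without library 1 of Reh or either library of PMA-treated Reh (adjusted p of 0.0564 to 0.0789), or after quantile normalisation (adjusted p = 0.0608). Marker lists moved with the treatment. The Hodgkin markers summed to 15.3 to 16.2 FPKM in Reh and 37.1 to 43.0 FPKM after PMA, with CCL17 at 0 in both. Among them CSF1R was called higher by 3.33 (adjusted p = 1.02e-05), and FSCN1, TNFRSF8 and TNFRSF11A were not called. The summed level of the precursor B markers was 1077 to 1159 FPKM in Reh and 128 to 134 FPKM after PMA, with VPREB1 at 0 in both and 4 of 5 at 1 FPKM or more in both. The summed myeloid markers were at 25.7 to 32.4 FPKM in Reh and 5.41 to 6.73 FPKM after PMA, with FCGR3A at 0 in both. The T and NK markers summed to 2.82 to 3.18 FPKM in Reh and 8.19 to 12.7 FPKM after PMA, with CD3D and CD2 at 0 in both and NKG7 called higher (adjusted p = 0.00274). Of the B-lineage markers, summed at 901 to 983 FPKM in Reh and 1039 to 1256 FPKM after PMA, CD79B (−2.78), PAX5 (−1.97) and EBF1 (−1.90) were called lower, and CD79A differed by 1.43 (adjusted p = 0.0602). The part of these in the APOBEC3 differences was not tested.

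PMA-treated Reh can be set beside the Hodgkin lines, with which it shares no library. Its APOBEC3B remained below that of all 3, by 1.24 (KM-H2), 1.53 (L1236) and 2.68 (L428) on the log2 scale, with adjusted p of 0.0393, 0.0175 and 0.000855. The difference from KM-H2 was not called when library 0 of KM-H2 or any library of Namalwa, Reh or PMA-treated Reh was left out (adjusted p of 0.0578 to 0.239; 0.79 without library 0 of KM-H2), and that from L1236 without library 0 of L1236 or either library of PMA-treated Reh (adjusted p of 0.0694 to 0.133). Its APOBEC3D, APOBEC3F and APOBEC3G were higher than in KM-H2 and L1236, by 1.19 to 3.37, and did not pass the threshold against L428. The APOBEC3F calls were lost without library 0 of PMA-treated Reh (adjusted p = 0.0533 and 0.0605). APOBEC3C and APOBEC3H gave no call against any Hodgkin line. Over all genes 52.2% were called against KM-H2, 47.2% against L1236 and 48.8% against L428.

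Ranked by mean log2 level, the 6 conditions gave different orders for different members, and few neighbours in an order could be told apart. Of 30 neighbouring pairs over the 6 members tested, 4 passed the threshold. For APOBEC3B the order was L428, L1236, KM-H2, PMA-treated Reh, Reh and Namalwa, with a step between KM-H2 and PMA-treated Reh (adjusted p = 0.0393). APOBEC3C ran from PMA-treated Reh over L428, KM-H2, L1236 and Reh to Namalwa with no such step. APOBEC3D had a step between L428 and Reh (adjusted p = 0.0146), below PMA-treated Reh and L428 and above Reh, L1236, KM-H2 and Namalwa. APOBEC3F had the order PMA-treated Reh, L428, Reh, Namalwa, L1236 and KM-H2 and no step. For APOBEC3G the order was PMA-treated Reh, L428, Reh, L1236, Namalwa and KM-H2, with a step between Reh and L1236 (adjusted p = 0.0183). APOBEC3H began with Reh, a step above KM-H2 (adjusted p = 0.0342), then L428, PMA-treated Reh, L1236 and Namalwa. Over all 15 pairs of conditions the members gave 46 calls, 11 for APOBEC3B, 10 each for APOBEC3G and APOBEC3H, 8 for APOBEC3D, 4 for APOBEC3F and 3 for APOBEC3C, where 39.8% of all such tests were called. Of the pairs not yet given, 36.2% of all genes were called between KM-H2 and L1236, 30.6% between L1236 and L428, and 41.6% between Namalwa and PMA-treated Reh.

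The make-up of the family RNA differed between lines. Summed FPKM over the 7 genes was 26.7 ± 10.4 in KM-H2, 26.0 ± 6.91 in L1236, 62.0 ± 12.8 in L428, 10.5 ± 3.03 in Namalwa, 32.2 ± 1.68 in Reh and 84.6 ± 35.3 in PMA-treated Reh (SD, n = 2). APOBEC3B made up 18.7% ± 2.54 of the sum in KM-H2, 24.3% ± 7.19 in L1236 and 24.9% ± 8.37 in L428. Its share was 0.312% ± 0.441 in Namalwa, 1.11% ± 0.489 in Reh and 1.92% ± 0.881 in PMA-treated Reh (SD, n = 2). No Hodgkin line's share of APOBEC3B came near that of the other conditions. By the mean share APOBEC3G was the largest component in L428 (40.9%), Namalwa (47.1%), Reh (52.3%) and PMA-treated Reh (58.0%), and APOBEC3C in KM-H2 (46.7%) and L1236 (35.4%). In L1236 the libraries disagreed: APOBEC3C had 44.6% and APOBEC3G 12.6% in library 0, and 26.3% and 36.8% in library 1. PMA-treated Reh, with the largest mean sum, kept APOBEC3B as a minor component. Its libraries, at 59.7 to 110 FPKM, overlapped in sum with those of L428, at 53.0 to 71.0 FPKM.

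**Figure D3:**
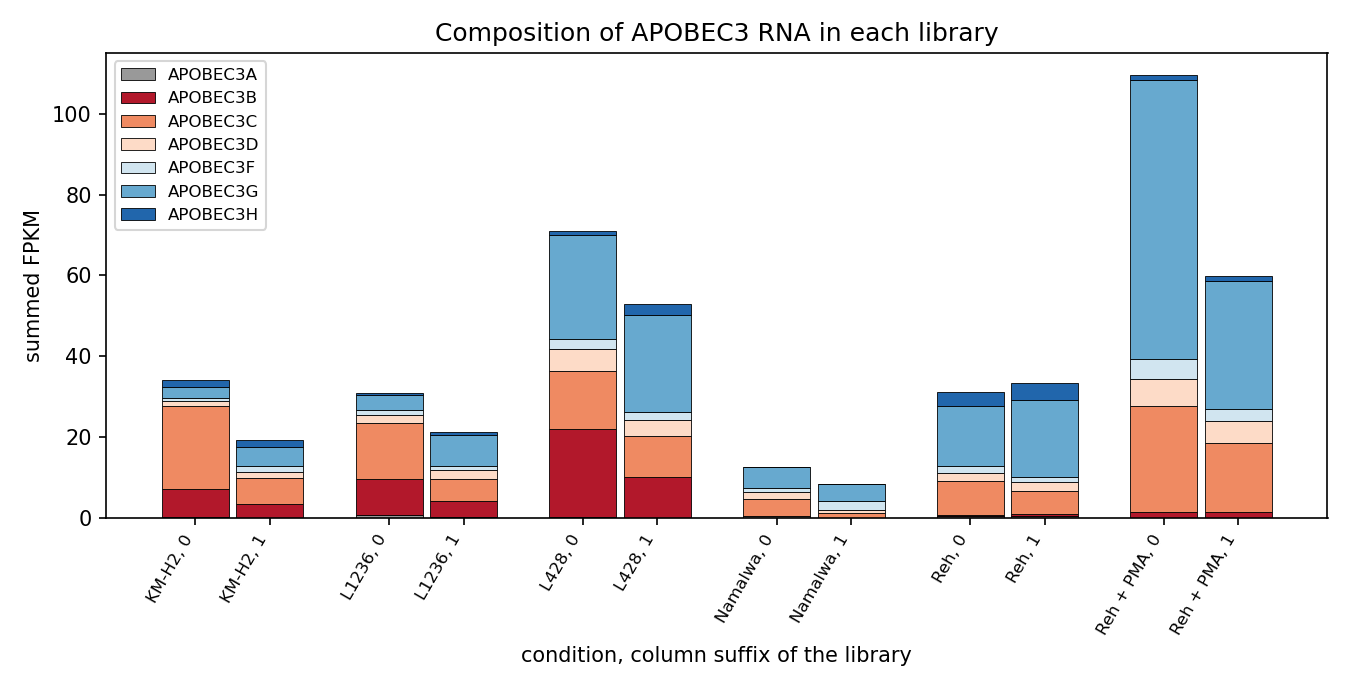
Summed FPKM of the 7 APOBEC3 genes in each library, stacked by gene, with the condition and the column suffix under each bar. APOBEC3B (dark red) fills on average over the 2 bars of a condition 18.7 to 24.9% of the height in the Hodgkin lines and 0.312 to 1.92% elsewhere, and in the bars of PMA-treated Reh APOBEC3G fills 58.0% on average.

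As a description over the 12 libraries, which share conditions, log2 levels of APOBEC3D and APOBEC3G correlated with r = 0.90, those of APOBEC3F and APOBEC3G with r = 0.82 and those of APOBEC3D and APOBEC3F with r = 0.74. APOBEC3B correlated with r = 0.53 with APOBEC3C and with r between −0.07 and 0.36 with APOBEC3D, APOBEC3F, APOBEC3G and APOBEC3H. The 3 genes of the whole table closest to APOBEC3B by this measure were DFNB31 (r = 0.96), PTGER4 (0.95) and KLF3 (0.95). Closest to APOBEC3G was DUSP6 (0.95), to APOBEC3D RTN2 (0.95), to APOBEC3H CD200 (0.96), to APOBEC3F TUBGCP2 (0.94) and to APOBEC3C HK1 (0.92).

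Around the cluster the differences were not uniform. In the Hodgkin comparison, from APOBEC3B to APOBEC3H the differences went from 2.88 through 1.17 and 0.44 to between −0.14 and 0.03. Of 7 flanking genes 5 passed the filter, and 1 was higher (2 without library 1 of KM-H2) and 2 lower, where 29.6% and 25.8% of all genes were. CBX7, a Polycomb subunit next to APOBEC3H, was higher by 0.98 (adjusted p = 0.00610), SYNGR1 was lower by 3.01 (adjusted p = 6.28e-07) and SUN2 lower by 0.57 (adjusted p = 0.00274), with KM-H2 and L1236 overlapping Namalwa. After PMA, 0 were higher (1 with no filter on low values) and 3 lower by limma: SYNGR1 (−2.53), RPL3 (−2.41) and CBX7 (−1.09), where 14.7% of all genes were higher and 17.2% lower. At most 1 of these calls was left without library 0 or library 1 of Reh or library 1 of PMA-treated Reh. The median of the 5 was −0.50 and −1.09 in the 2 comparisons, against 0.02 and −0.03 over all genes.

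**Figure D4:**
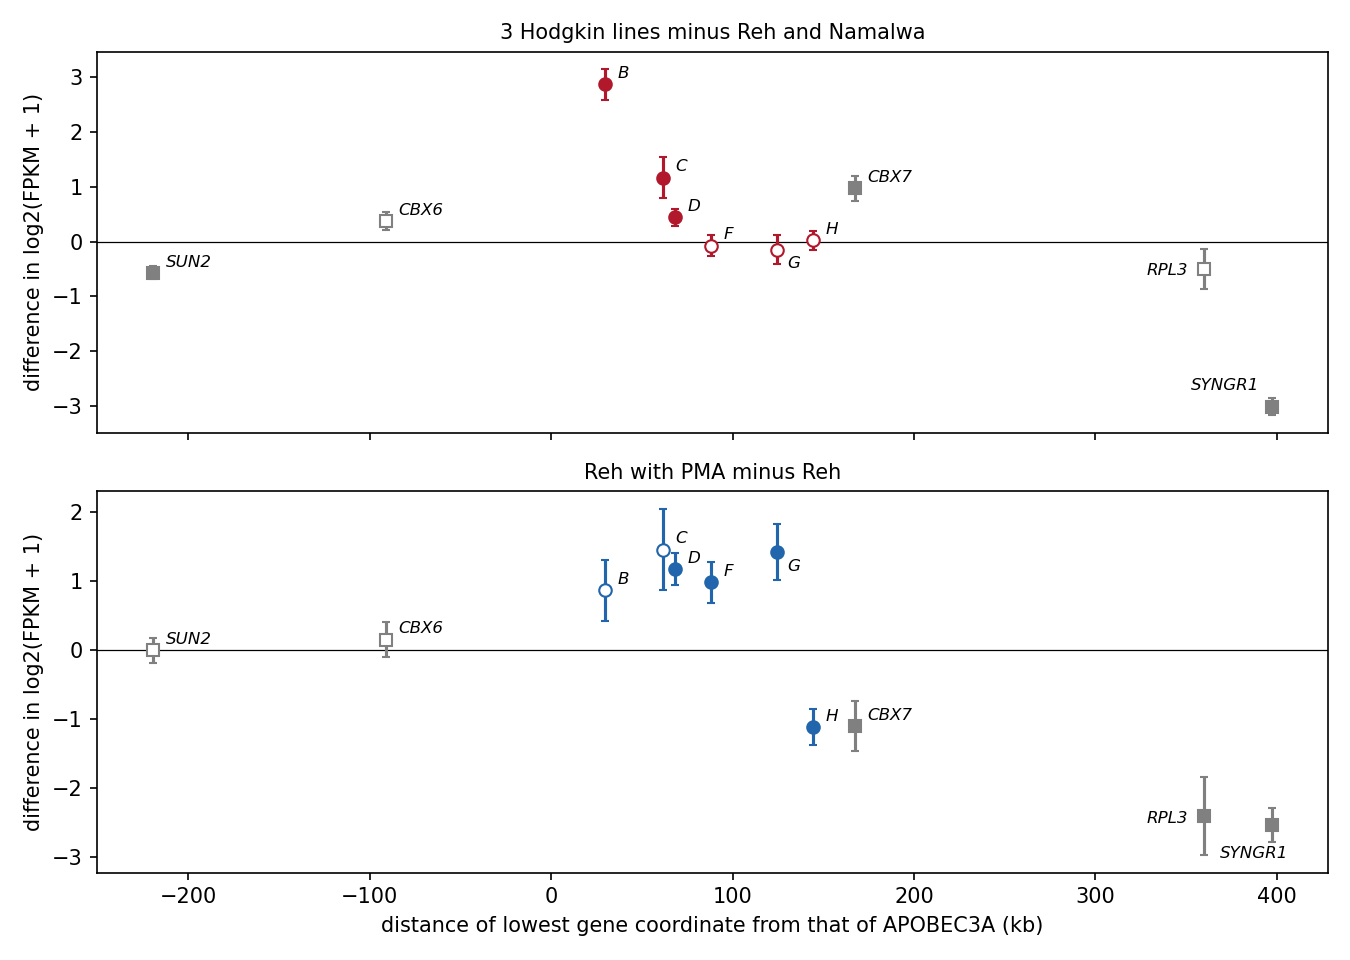
Difference in log2(FPKM + 1) ± SE against the distance in kb of each gene's lowest coordinate from that of APOBEC3A, for the Hodgkin lines minus the controls (top) and PMA-treated minus untreated Reh (bottom); circles are APOBEC3 genes by their last letter, squares other genes, and filled symbols have an adjusted p under 0.05. In the Hodgkin comparison the highest point is APOBEC3B at 2.88, and after PMA the last member, APOBEC3H, lies at −1.12 beside CBX7 (−1.09), while the members before it lie above 0.

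The antisense gene APOBEC3B-AS1 had a pattern of its own. It measured 4.50 and 3.74 FPKM in KM-H2, 0.624 and 0 in L1236 and 0.547 and 0 in L428, and was listed at 0 in the other 6 libraries. In KM-H2, its highest line, APOBEC3B was not called different from L1236 (−0.29, adjusted p = 0.656) and was called lower than in L428 (−1.45, adjusted p = 0.0288). The call against L428 was lost without library 1 of KM-H2 or library 0 of L428. The kit keeps the strand, but whether the authors' quantification used it is not given in the sources used here, so fragments from the 1246 shared bases may stand under either gene.

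Partners of the family are given from lists chosen for their function. Among its relatives, APOBEC1, the RNA editor of apolipoprotein B, was listed at 0 in all 12 libraries.

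The uracil that APOBEC3 enzymes leave in DNA is removed by base excision and mismatch repair. Of 13 genes for uracil and abasic site repair, 1 was higher and 7 lower in the Hodgkin lines, where 29.6% and 25.8% of all genes were, with a median of −0.32 against 0.02 over all genes. HMCES, which shields abasic sites in single-stranded DNA, was lower by 2.22 (adjusted p = 2.07e-06), the glycosylase TDG by 1.53 (adjusted p = 7.09e-05), and UNG, the main uracil glycosylase, by 0.82 (adjusted p = 0.0230). The Hodgkin libraries were not all below both controls: UNG stood at 22.3 to 58.8 FPKM in KM-H2 and 30.1 to 34.5 in L1236 against 30.5 to 40.2 in Namalwa, and TDG in KM-H2 (32.3 to 32.4) lay within the range of Namalwa (31.1 to 48.8). After PMA 2 were higher and 5 lower, where 14.7% and 17.2% of all genes were, with a median of −0.16 against −0.03. UNG went from 64.9 and 75.3 to 6.41 and 8.83 FPKM, lower by 3.05 (adjusted p = 0.000667), and the mismatch repair gene MSH6 was lower by 1.75 (adjusted p = 0.00113). APEX1, the abasic endonuclease, was higher by 2.24 (adjusted p = 0.0452), and the count of 2 higher fell to 0 under upper-quartile or quantile scaling, or without any 1 of the 6 libraries of Namalwa, Reh or PMA-treated Reh, and to 1 without any 1 library of L1236 or L428. In the Hodgkin lines the 1 higher became 2 without library 0 of L1236. The 7 lower there became 4 without library 1 of Namalwa or either Reh library, and the 5 lower after PMA became 2 or 3 without any 1 of the 4 Reh libraries.

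Of 12 other antiviral restriction factors, 2 were higher and 5 lower in the Hodgkin lines, where 29.6% and 25.8% of all genes were (median −0.13). BST2, which tethers budding virions, was higher by 1.07 (adjusted p = 0.00477), and SERINC5, an inhibitor of virion infectivity, lower by 1.83 (adjusted p = 7.33e-05). After PMA 1 was higher, the DNA sensor IFI16 by 1.38 (adjusted p = 0.0147) and 5 were lower, where 14.7% and 17.2% of all genes were, among them the interferon-induced GTPase MX1 by 2.45 (adjusted p = 0.00649) and SERINC5 by 2.15 (adjusted p = 0.00141); the median was −0.57. IFI16 was not called without any 1 of the 4 Reh libraries, the 5 lower after PMA became 3 without library 0 of PMA-treated Reh, and the 5 lower in the Hodgkin lines became 3 without library 0 of L1236, library 1 of Namalwa or either Reh library, while the 2 higher became 4 without library 1 of KM-H2. In the Hodgkin comparison IFI16 was lower (−1.14, adjusted p = 0.00185), with 61.3 to 114 FPKM in Namalwa but a mean of 10.9 FPKM in Reh, below KM-H2 and L428 (18.9 to 22.3).

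Of 10 factors known to act on APOBEC3B transcription, 4 were higher in the Hodgkin lines, where 29.6% of all genes were (median 0.09), all of them NF-κB subunits. NFKB2 was higher by 2.78 (adjusted p = 2.42e-06), RELB by 1.56 (adjusted p = 0.000500), REL by 1.20 (adjusted p = 0.000362) and NFKB1 by 0.86 (adjusted p = 0.00389). NFKB1 in L428 and REL in L1236 overlapped with Namalwa. After PMA 2 were higher, RELB by 2.48 (adjusted p = 0.00137) and NFKB2 by 1.80 (adjusted p = 0.00193), and 0 lower, where 14.7% and 17.2% of all genes were (median 0.41); RELB is also in the list of PMA response markers. NFKB2 stood at 54.1 to 147 FPKM in the Hodgkin lines, 26.3 to 28.6 after PMA, 13.5 to 18.2 in Namalwa and 5.83 to 8.69 in Reh, while RELB in Namalwa, 19.0 to 32.5 FPKM, lay within the range of the Hodgkin lines, 12.5 to 42.8 FPKM, and APOBEC3B in Namalwa was at most 0.0790 FPKM. Whether these factors have a part in the APOBEC3B levels was not tested.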

How the data were processed

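RNA-Seq libraries (TruSeq Stranded Total RNA with Ribo-Zero depletion) were aligned by the authors with TopHat2 2.0.11 to hg19 and quantified with Cuffnorm 2.2.1, per the submitters' processing notes. The deposited values are FPKM per gene for 12 libraries of 6 conditions. The annotation and the library scaling are not given in the sources used here. All 12 columns were used and none belonged to an unmapped sample. Column suffixes do not name the labelled replicate, so columns were assigned to conditions only.

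From these FPKM values, log2(FPKM + 1) was fitted with limma 3.58.1 in R 4.3.3 with 1 mean per condition, all 12 libraries and a mean-variance trend. Genes with at least 1 FPKM in at least 2 libraries entered (14679), Benjamini-Hochberg adjustment ran over all of them, and an adjusted p under 0.05 was called. Contrasts were the 3 Hodgkin lines minus Reh and Namalwa, PMA-treated minus untreated Reh, and all 15 pairs. Line means were compared with exact permutation tests. The script was tested on simulated data. Depth was estimated from the smallest step of FPKM × transcript length, and gives counting limits only. Positions, coding sequences and shared 50-base words came from GENCODE on GRCh37. Of the 7 members, 1 (APOBEC3H) had an entry in the RefSeq promoter table, which was not used further.

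The members and the gene lists were chosen with earlier results of these data known. All 7 members are described. From each list at most 4 genes are named, those with the largest differences among the called, besides any at 0, and some genes of these lists are not reported here. The 3 genes closest to a member are those with the highest Pearson r over 12 libraries. Alternatives were a pseudocount of 0.1, no filter, upper-quartile and quantile scaling, no variance trend, fewer libraries in the fit, and leaving out each library. Added after seeing the data were the column suffix as a block and fits with only library 0 or only library 1 of the Hodgkin lines.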

Additional observations from a re-analysis of the deposited data

Results flagged for a closer look

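The limma test of the difference between Hodgkin lines, run for 6 APOBEC3 genes in each of 3 pairs of lines, gave 7 calls. This share is near that of all genes called in these pairs, 30.6 to 36.4%, and is not read as a result about the family. The differences below are on the log2(FPKM + 1) scale, first line minus second, and since all lines are set against the same controls, each is also the difference between the lines' effects over the controls.

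KM-H2 minus L428 was −2.49 for APOBEC3G (adjusted p = 0.00120), −1.45 for APOBEC3B (adjusted p = 0.0288) and −1.22 for APOBEC3D (adjusted p = 0.00309). L1236 minus L428 was −1.99 for APOBEC3G (adjusted p = 0.00524), −0.89 for APOBEC3D (adjusted p = 0.0179) and −0.87 for APOBEC3H (adjusted p = 0.0322). KM-H2 minus L1236 was 0.90 for APOBEC3H (adjusted p = 0.0240).

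Between KM-H2 and L428, 36.4% of all genes were called, between L1236 and L428 30.6%, and between KM-H2 and L1236 36.2%. Leaving out single libraries kept the calls of APOBEC3G in both comparisons and that of APOBEC3D between KM-H2 and L428. With only library 1 of the Hodgkin lines these calls were lost, and with only library 0 that of APOBEC3G between L1236 and L428 was lost. Each Hodgkin line then had 1 library and the spread came from the other conditions only, so these losses say little about the differences. The call of APOBEC3B was lost without library 1 of KM-H2 or library 0 of L428 (differences of −0.99 and −0.92, adjusted p = 0.179 and 0.163), with a pseudocount of 0.1 (adjusted p = 0.0617) and with no filter (0.0507). That of APOBEC3D between L1236 and L428 was lost without either library of L1236 or library 0 of L428 (adjusted p of 0.0593 to 0.0897). Those of APOBEC3H were lost without any 1 of 4 libraries (KM-H2 minus L1236, either library of either line) or 7 libraries (L1236 minus L428; −0.43 without library 1 and −1.32 without library 0 of L428), with about 2 to 34 fragments behind its values in L1236 and L428; under quantile scaling neither was called (adjusted p = 0.0712 and 0.0609), and with no filter that between L1236 and L428 was not (0.0522).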

How the results depend on the processing

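The column suffixes do not name the labelled replicates, so whether they pair the libraries is not known. With the column suffix as a replicate block, chosen after seeing the data, the counts became 3 higher and 0 lower (Hodgkin), 4 and 1 (PMA), 0 and 3 (Namalwa), 14 and 5 (each Hodgkin line against each control) and 52 (all pairs). APOBEC3C gained a call after PMA and in Namalwa minus Reh (adjusted p = 0.00701 and 0.0153).

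With only library 1 of the Hodgkin lines, Hodgkin members called higher fell from 3 to 1 and members without overlap from 2 to 1. Lower calls over the 6 line comparisons fell from 5 to 3 with a pseudocount of 0.1 or no filter and to 2 with only library 1 of the Hodgkin lines. The PMA count of lower members went from 1 to 0 under quantile scaling, and that of Namalwa from 2 to 1 with only library 0 or only library 1 of the Hodgkin lines. Leaving out each library gave 1 to 3 Hodgkin members higher, 1 to 2 without overlap, 1 to 3 higher and 0 to 1 lower after PMA, 1 to 2 lower in Namalwa, and 2 to 5 lower over the 6 comparisons. The causes were not tested.

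Signs turned for differences near 0. APOBEC3H in the Hodgkin comparison (0.03) was −0.087 under quantile scaling, −0.15 with only library 0, and −0.12 to 0.18 over the left-out libraries, but 0.99 and called with a pseudocount of 0.1 (adjusted p = 0.0164). APOBEC3G there was 0.087 with only library 1, and APOBEC3F −0.22 to 0.079 over the left-out libraries. APOBEC3F in Namalwa minus Reh was 0.28 under quantile scaling and −0.30 to 0.30 over the left-out libraries. The APOBEC3D Hodgkin call was lost with no filter or quantile scaling (adjusted p = 0.0505 and 0.230), and the APOBEC3F PMA call with a pseudocount of 0.1 or no filter (adjusted p = 0.0668 and 0.0594). Upper-quartile scaling moved the median of all genes after PMA to −0.12, with the same 3 higher and 1 lower members.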
